A study of Mus musculus with 18 samples.

Results

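The transcripts described here passed a test of the mean difference between INS37217 and saline over all times after experimental retinal detachment. Their difference also had the same sign at every time, which was a selection by value and not a test at each time. All 18 arrays of the study entered: 9 from retinas detached by a subretinal injection of INS37217 and 9 from retinas detached by saline alone. The mice were Balb/cJ, an albino strain. Each eye received 1 µL of saline, or 1 µL of 10 µM INS37217 in saline, and retinas were taken 2 h, 24 h or 7 d later. Every group had 3 arrays, each hybridised with RNA pooled from more than 5 retinas, so the n of each group counts pools and not animals. Both arms carried a detachment, and no undetached retina was analysed here, so each difference below is INS37217 minus saline in detached retina. Of 22626 probe sets tested, 108 passed the test for a difference common to the 3 times and also had 1 sign at all 3 times, 86 of them higher and 22 lower with INS37217.

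INS37217, also known as denufosol, is a stable dinucleotide that activates the P2Y2 receptor, a receptor for extracellular ATP and UTP that signals through Gq, phospholipase C and calcium. In the back of the eye this receptor is found on the pigment epithelium, where its activation drives chloride and fluid transport away from the subretinal space. Detachment separates photoreceptors from that epithelium; Mueller glia then become reactive, microglia and blood-borne macrophages gather, and photoreceptors can die. Reactive glia are known for intermediate filaments such as vimentin, for acute-phase proteins such as lipocalin-2, and for receptors of the interleukin-6 family.

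The groups follow the sample titles. The source names of 8 INS37217 arrays mention just saline, and in that of 1 more array, saline at 7 d replicate 2, the time is 2 h where the title has 7 d. Over all probe sets that array correlated best with INS37217 at 7 d replicate 2, with r = 0.9945, and at most at r = 0.979 with a saline array of 2 h. The tissue label was checked on rod photoreceptor genes, whose 19 measured members averaged between 11.1 and 11.8 on the log2 scale on every array. Lens genes, mostly crystallins, also averaged high, between 10.3 and 11.3.

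For each probe set the shared difference is the mean difference in log2 level between INS37217 and saline arrays, adjusted for time and replicate number in limma, so that 1 log2 unit is a doubling. A call is a Benjamini-Hochberg adjusted p under 0.05 over all 22626 probe sets. Of these, 113 passed, which is 0.499%, and 2670 had an unadjusted p under 0.05. The calls were uneven in direction: 89 probe sets were higher with INS37217, 0.393% of all, and 24 were lower, 0.106%. Among the 89, 86 were higher at all 3 times, while 13.6% of all probe sets were. Among the 24, 22 were lower at all 3 times, against 16.8% of all. A probe set with a large average difference is likelier to keep its sign, so these shares describe the calls and do not test them.

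Most of the differences were small. The 86 higher probe sets, which stand for 67 named genes and 8 probe sets with no single gene, had shared differences of 0.23 to 0.95 with a median of 0.40, and 17 of them reached 1.5-fold. The 22 lower ones, for 21 named genes and 1 probe set with no single gene, lay between -0.50 and -0.21 with a median of -0.30, and 0 reached 1.5-fold. Over all probe sets the 5th and 95th percentiles of the shared difference were -0.15 and 0.16, around a median of -0.00111.

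**Figure D1:**
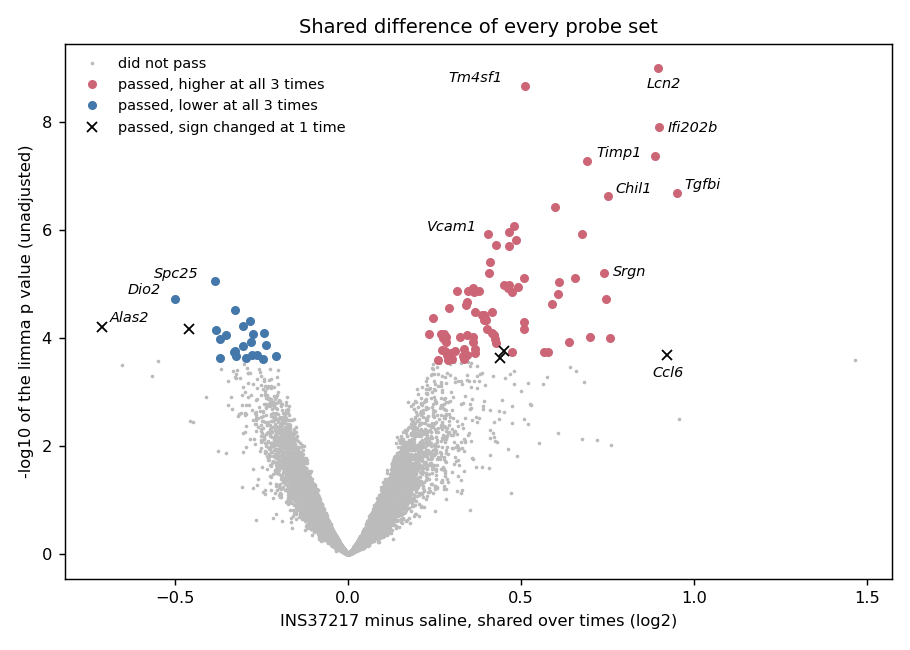
Shared INS37217 minus saline difference (x axis, log2) against the unadjusted p of the shared test in limma (y axis, -log10) for 22626 probe sets. Coloured points passed the adjusted threshold with 1 sign at all 3 times, crosses passed with a change of sign and grey points did not pass; the 86 higher points spread to 0.95, while the 22 lower points stop at -0.50.

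Lipocalin-2 (Lcn2), a secreted iron-siderophore binder and a known marker of reactive glia, had the smallest p of all probe sets. At 2 h its log2 level was 7.71, 7.34 and 7.49 in saline arrays of replicates 1 to 3 and 8.38, 8.21 and 8.33 with INS37217. At 24 h it was 10.45, 10.47 and 10.59 in saline and 11.82, 11.73 and 11.85 with INS37217. At 7 d it was 8.61, 8.67 and 8.73 against 9.06, 9.38 and 9.35. The INS37217 arrays lay above every saline array of their own time, whereas the level itself climbed to 24 h and came part of the way back in both arms. The shared difference was 0.89 ± 0.087 (SE), or 1.86-fold, with limma's adjusted p = 2.3e-05, and all 9 pairs of arrays with the same time and replicate number were higher.

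Tm4sf1, a tetraspanin-like membrane protein of endothelium and epithelium, showed nearly the same difference at each time. At 2 h it read 7.70, 7.81 and 8.04 in saline and 8.23, 8.30 and 8.35 with INS37217. At 24 h the values were 7.41, 7.57 and 7.70 in saline and 7.95, 8.21 and 8.13 with the drug, and at 7 d 6.60, 6.54 and 6.84 against 7.12, 7.11 and 7.40. The groups did not overlap at any time, and the differences of 0.44, 0.54 and 0.55 at 2 h, 24 h and 7 d were within each other's error (limma's test of a drug effect that varies with time, adjusted p = 0.97). Its shared difference was 0.51 ± 0.052 (SE), 1.42-fold, with limma's adjusted p = 2.5e-05. A second probe set of the gene, near the bottom of the scale with a mean of 4.47, read -0.00.

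Ifi202b, an interferon-inducible DNA-binding protein of the p200 family, differed by 0.90 ± 0.1003 (SE), 1.86-fold, with limma's adjusted p = 9.2e-05. In saline it read 6.08, 6.72 and 6.50 at 2 h, 5.38, 6.31 and 6.34 at 24 h, and 5.19, 5.96 and 5.71 at 7 d. With INS37217 it read 6.65, 7.39 and 7.07, then 6.79, 7.84 and 7.60, then 5.64, 6.61 and 6.68. Replicate 1 was the lowest array of its group at every time, so the ranges overlapped at 2 h and 7 d, but each INS37217 array was above the saline array of its own number in all 9 pairs. This is a gene that needs the pairing: without the replicate block its adjusted p in limma was 0.27, against 0.00052 for Lcn2 and 0.011 for Tm4sf1.

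Lcn2, Ifi202b, Tm4sf1 and Tnfaip2 were the 4 named genes that passed when any 1 of the 18 arrays and also when any 1 of the 3 times was left out. Tnfaip2, a TNF-induced regulator of membrane protrusions, differed by 0.68, 0.28 and 0.43 at the 3 times on a probe set with a low mean level of 4.41; a brighter probe set of the gene differed by 0.20 with limma's adjusted p = 0.48. Of the 108 members, 43 passed under every single-array omission, 41 higher and 2 lower. Leaving out a time cost more: 0 of the lower members passed under all 3 such omissions.

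Genes of reactive glia were the group with the most calls. On 1 probe set per gene, 9 of 18 measured genes were higher with INS37217 and 0 lower, where 54 of all 12393 genes were called higher and 11 lower. The shared difference was above 0 in all 18, with a median of 0.34 against -0.01 over all genes, and 14 of 18 were higher at all 3 times. Medians of the list were 0.39 at 2 h, 0.31 at 24 h and 0.30 at 7 d. The list was drawn up with earlier results of these arrays known and is not independent evidence of its direction. With any 1 array left out 7 to 10 of the 18 passed; without replicate 1, 2 or 3 the count was 5, 3 or 1, and without the 2 h, 24 h or 7 d arrays 7, 1 or 6.

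The 9 called genes cover several sides of glial reactivity. Vimentin (Vim), the intermediate filament of Mueller cells, differed by 0.28 (limma's adjusted p = 0.033), and Cd44, a hyaluronan receptor, by 0.35 (limma's adjusted p = 0.0099). Osmr, the oncostatin M receptor, differed by 0.40, 0.30 and 0.34 at the 3 times with all 9 pairs higher. Steap4, a metalloreductase induced by inflammation, differed by 0.53, 1.07 and 0.16, and Ch25h, which makes 25-hydroxycholesterol, by 0.72, 0.38 and 0.34. Chil1, a chitinase-like secreted glycoprotein, read 7.01, 7.22 and 7.25 in saline and 7.40, 7.43 and 7.45 with INS37217 at 2 h, 8.79, 9.10 and 9.12 against 9.87, 10.23 and 10.41 at 24 h, and 7.46, 7.90 and 7.88 against 8.11, 8.73 and 8.87 at 7 d. Its ranges were apart at all 3 times and the gap was widest at 24 h.

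Serpina3n, a secreted protease inhibitor of the acute phase, had a time course of its own within that group. Its saline arrays read 9.13, 8.76 and 8.56 at 2 h, 11.02, 10.72 and 10.60 at 24 h, and 9.26, 8.79 and 8.89 at 7 d, against 9.37, 9.01 and 9.22, then 11.14, 11.13 and 11.01, then 10.55, 10.53 and 10.48 with INS37217. All 9 pairs were higher, yet the difference was 0.38 and 0.31 at the first 2 times and 1.54 at 7 d, and the test of a drug effect that varies with time passed in limma with adjusted p = 0.00011. The filament gene Gfap, the usual marker of Mueller gliosis, did not pass: it differed by 0.20 ± 0.074 (SE), with limma's adjusted p = 0.28, and by 0.15, -0.03 and 0.47 at the 3 times. Homeostatic Mueller genes had a median shared difference of -0.04 over 14 genes, with 9 below 0 and 5 above it. At all 3 times 6 of the 14 were lower and 1 was higher. At 24 h their median was -0.20, and their mean level was 8.95 to 9.16 in saline against 8.64 to 8.93 with INS37217, apart between arms, whereas it overlapped at 2 h and 7 d. Car14, a carbonic anhydrase, read -0.31, -0.56 and -0.05 (limma's adjusted p = 0.087) and Rlbp1, a retinoid carrier, -0.04, -0.58 and -0.12 (limma's adjusted p = 0.17). The 1 that passed was lower, namely Gpr37, an orphan receptor that binds prosaposin, at -0.35 (limma's adjusted p = 0.03). Its differences were -0.52, -0.47 and -0.07 at the 3 times, the last smaller than its SE of 0.105, and its ranges overlapped at each time.

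**Figure D2:**
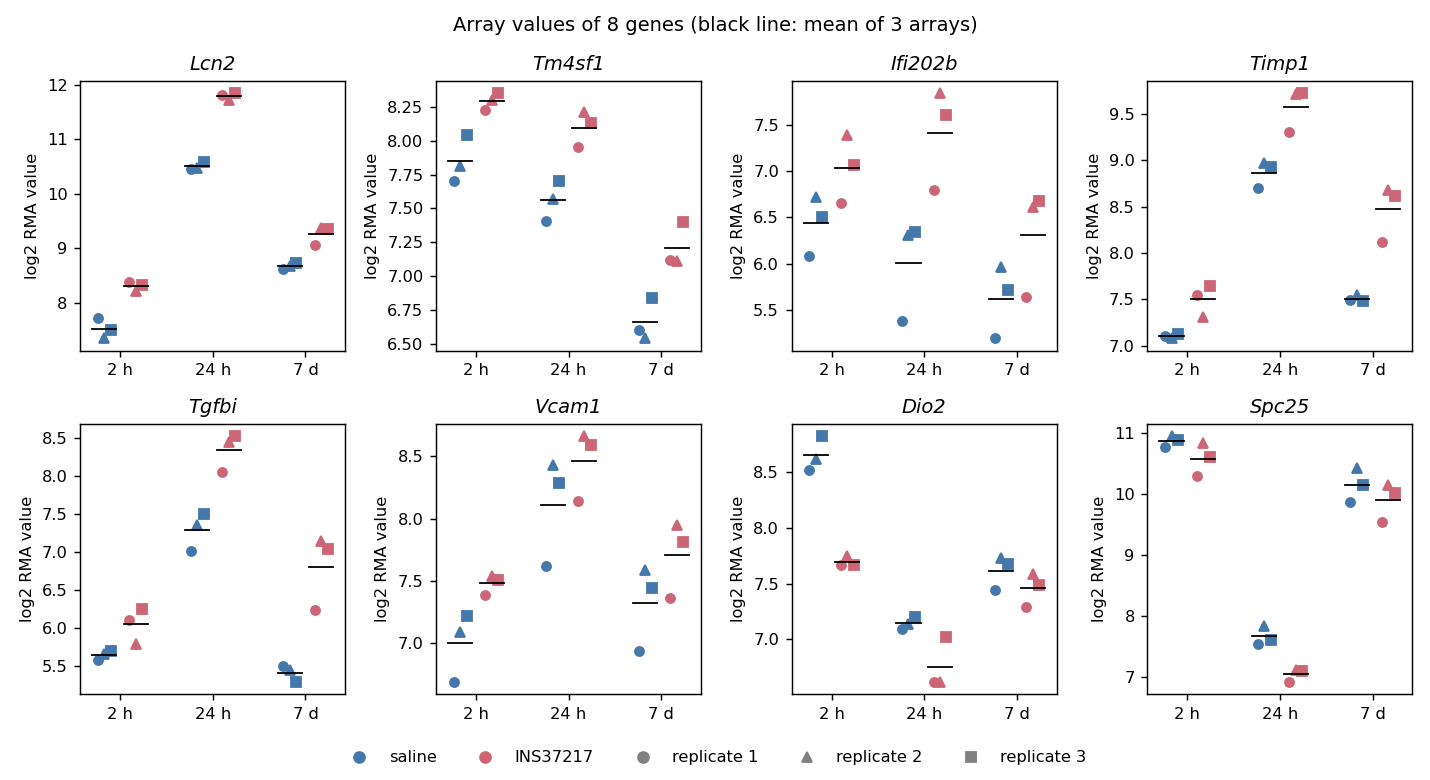
Log2 level on each of the 18 arrays (y axis) by time (x axis) for 8 members, with saline and INS37217 arrays in separate colours, a marker shape for each replicate number and a black line at the mean of 3 arrays. Lcn2, Tm4sf1 and Timp1 are higher with INS37217 in every pair; Dio2 and Spc25 are lower in every pair, the gap in Dio2 closing from 2 h to 7 d.

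The largest shared difference among the members was that of Tgfbi. This extracellular adhesion protein is induced by TGF-beta and binds collagen and integrins, and its probe set read 5.57, 5.65 and 5.69 in saline and 6.10, 5.78 and 6.25 with INS37217 at 2 h. At 24 h it read 7.01, 7.36 and 7.50 against 8.05, 8.45 and 8.52, and at 7 d 5.49, 5.45 and 5.29 against 6.23, 7.14 and 7.04. No INS37217 array overlapped the saline arrays of its time, and the gap widened from 0.41 to 1.05 and 1.39. The shared difference was 0.95 ± 0.13 (SE), 1.93-fold, with limma's adjusted p = 0.00077; another 2 probe sets of the gene were members at 0.66 and 0.61.

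Timp1, an inhibitor of matrix metalloproteinases that reactive glia also secrete, differed by 0.40, 0.71 and 0.96 at the 3 times. It read 7.11, 7.08 and 7.13 in saline and 7.55, 7.31 and 7.65 with INS37217 at 2 h, 8.70, 8.97 and 8.93 against 9.30, 9.71 and 9.72 at 24 h, and 7.49, 7.55 and 7.48 against 8.12, 8.68 and 8.61 at 7 d. Again the ranges were apart at each time, and the shared difference was 0.69 ± 0.084 (SE), 1.61-fold, with limma's adjusted p = 0.00024. Timp1 was the 1 gene of 20 measured matrix proteases and inhibitors that passed on the list's probe sets; 9 of the 20 were higher at all 3 times and 0 lower.

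Vcam1, the endothelial and glial adhesion molecule that binds leukocyte integrins, differed on its member probe set by 0.48, 0.35 and 0.38, close to evenly. In saline it read 6.69, 7.09 and 7.22 at 2 h, 7.62, 8.43 and 8.29 at 24 h and 6.94, 7.59 and 7.44 at 7 d. With INS37217 it read 7.39, 7.54 and 7.51, then 8.14, 8.66 and 8.59, then 7.36, 7.95 and 7.81. Replicate 1 was again the lowest array of each group, so the ranges overlapped at 24 h and 7 d although 9 of 9 pairs were higher; limma's adjusted p was 0.0022 with the replicate block and 0.68 without it. Other probe sets of Vcam1 were higher at all 3 times but did not pass. One differed by 0.44, 0.18 and 0.15 (limma's adjusted p = 0.15) and another by 0.24, 0.32 and 0.07 (limma's adjusted p = 0.11). Sprr1a, a cornified-envelope protein known from injured neurons, differed by 0.43 and its ranges were apart at all 3 times, from 6.65 to 6.76 in saline against 6.94 to 7.14 with INS37217 at 2 h. Emp1, an epithelial membrane protein, differed by 0.51 (limma's adjusted p = 0.027) with 0.30, 0.54 and 0.69 at the 3 times.

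Gja1, the gap-junction protein connexin 43 of astrocytes and pigment epithelium, passed on 1 probe set only, at 0.40, 0.32 and 0.76. The other 5 probe sets of Gja1 were lower at 2 h, by -0.45 to -0.08, and higher at 24 h and 7 d, so the sign at 2 h depends on the probe set.

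Interferon-induced genes were members in smaller number. Oas1a, which makes the 2-5A activator of RNase L, was the 1 of 28 measured interferon-induced genes that passed on the list's probe sets, at 0.18, 0.67 and 0.34. The list's median was 0.21 in the shared test, but 0.00 at 2 h, 0.59 at 24 h and 0.03 at 7 d, and 7 of 28 were higher at all 3 times. Without the 24 h arrays its median was 0.02. Ifi27l2a, a small interferon-induced membrane protein, differed by 0.08, 1.31 and 0.87. The guanylate-binding proteins Gbp2 and Gbp2b, GTPases induced by interferon gamma, differed by 0.38 and 0.46 (limma's adjusted p = 0.0099 each), Gbp2 on a probe set other than the one that stands for it in the list of 9 interferon GTPases, of which 0 passed. The MHC class I heavy chains H2-D1 and H2-K1 passed on some of their probe sets: H2-D1 read 8.51, 8.45 and 8.55 in saline and 8.71, 8.59 and 8.72 with INS37217 at 2 h, 9.38, 9.46 and 9.75 against 9.98, 10.00 and 10.01 at 24 h, and 9.03, 9.09 and 9.22 against 9.78, 9.88 and 9.96 at 7 d, with no overlap at any time. Class I genes are near-identical in places, so their probe sets can bind more than 1 of them.

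The promoters of the members were searched for motifs of the factors that act downstream of interferon, oncostatin M and injury signals. In RefSeq (GRCm38.p6) 54 of the 67 higher genes and 19 of the 21 lower genes had a promoter, taken as the 250 bases before the start of transcription, read on both strands. These are sequences of the reference genome, and those of the Balb/cJ strain were not examined. The interferon-stimulated response element, searched as GAAA followed after any 2 bases by GAAA, was in 6 of 54 higher genes (11.1%), 0 of 19 lower genes and 3.35% of the promoters of 9887 genes on the array. The STAT motif TTCNNNGAA was in 8 of 54 (14.8%), 1 of 19 and 7.31% of all. The AP-1 motif TGANTCA was in 9 of 54 (16.7%), 0 of 19 and 6.84% of all, and the NF-kB motif, GGGA and TTTCC around any 1 base, in 0 of 54, 0 of 19 and 0.536% of all. These motifs were chosen after the members were known; a match is a description of the letters, and no match says nothing about the factor.

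Of the 6 higher genes with the interferon motif, Srgn and Tm4sf1 are not shown. The following 5 promoters hold that motif or, in Emp1, both the AP-1 and STAT motifs. Each is written 5′ to 3′ on the gene's own strand, with matches to any of the 4 motifs on either strand in capitals. They lie at chr5:120907526-120907775 on the minus strand for Oas1a and, on the plus strand, at chr3:142620413-142620662 for Gbp2, chr3:142594597-142594846 for Gbp2b, chr13:56609336-56609585 for Tgfbi and chr6:135362681-135362930 for Emp1.
Oas1a: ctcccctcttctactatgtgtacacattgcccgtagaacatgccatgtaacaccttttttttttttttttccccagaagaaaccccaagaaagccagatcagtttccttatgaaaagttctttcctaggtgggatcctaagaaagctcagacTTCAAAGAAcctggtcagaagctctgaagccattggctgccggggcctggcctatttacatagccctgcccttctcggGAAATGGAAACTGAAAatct
Gbp2: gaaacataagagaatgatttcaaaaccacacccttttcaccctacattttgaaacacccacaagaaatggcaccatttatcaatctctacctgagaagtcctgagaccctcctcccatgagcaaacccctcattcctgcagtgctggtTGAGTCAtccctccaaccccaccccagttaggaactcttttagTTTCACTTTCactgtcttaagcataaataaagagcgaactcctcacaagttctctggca
Gbp2b: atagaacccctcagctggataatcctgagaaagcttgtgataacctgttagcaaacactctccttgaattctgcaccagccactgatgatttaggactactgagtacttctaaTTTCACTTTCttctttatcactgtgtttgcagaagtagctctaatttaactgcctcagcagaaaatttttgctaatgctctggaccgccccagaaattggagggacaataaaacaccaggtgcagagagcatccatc
Tgfbi: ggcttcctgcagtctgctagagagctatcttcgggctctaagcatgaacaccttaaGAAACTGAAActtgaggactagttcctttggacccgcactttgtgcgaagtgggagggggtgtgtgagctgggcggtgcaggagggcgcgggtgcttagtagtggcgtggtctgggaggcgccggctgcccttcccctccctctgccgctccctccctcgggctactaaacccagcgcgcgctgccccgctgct
Emp1: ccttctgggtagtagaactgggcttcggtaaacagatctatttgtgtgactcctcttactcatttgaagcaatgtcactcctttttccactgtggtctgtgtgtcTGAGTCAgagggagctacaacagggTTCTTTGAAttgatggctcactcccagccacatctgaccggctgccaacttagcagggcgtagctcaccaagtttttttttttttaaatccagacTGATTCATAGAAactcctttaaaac
Oas1a also holds the STAT motif, and Gbp2 the AP-1 motif. In Emp1 the last run of capitals is an AP-1 match overlapping a STAT match.

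Immune-cell genes made up a further part of the higher members. Srgn, serglycin, the granule proteoglycan of leukocytes, read 6.77, 6.94 and 7.19 in saline and 6.75, 7.01 and 7.32 with INS37217 at 2 h, 7.05, 7.47 and 7.67 against 8.21, 8.91 and 8.53 at 24 h, and 5.83, 6.39 and 6.45 against 6.84, 7.53 and 7.31 at 7 d. Its difference was nearly nil at 2 h, 0.06, and 1.15 and 1.00 later. Fcer1g, the Fc receptor gamma chain, differed by 0.11, 0.71 and 0.57, and the leukocyte tetraspanin Cd53 by 0.05, 0.99 and 0.65. Srgn and Cd53 thus keep their sign at 2 h by differences smaller than 0.111, the median standard error of a difference at 1 time.

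Of 31 measured microglia and macrophage genes, 3 were called higher (Fcer1g, Cd53 and Cd14) and 0 lower, and 30 had a shared difference above 0. Of all 12393 genes, 5688 had a shared difference above 0. The count was 1 to 7 with any 1 array left out, 12 without the 2 h arrays, and 0 without the 24 h or without the 7 d arrays. The mean level of the list overlapped between arms at 2 h, 6.17 to 6.35 in saline and 6.18 to 6.31 with INS37217. At 24 h it was 6.44 to 6.54 in saline and 6.74 to 6.82 with INS37217, and at 7 d 6.89 to 6.94 against 7.35 to 7.53. The mean level of the reactive glia list, in contrast, was apart at 2 h as well, 7.86 to 8.02 in saline against 8.26 to 8.36 with INS37217. In pooled tissue a change in the number of cells of a type and a change of RNA per cell cannot be told apart.

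Among 26 cytokine, chemokine and adhesion genes, 2 passed on the list's probe sets, Ccl2 and Ccl6, both higher in the shared test, and 14 were higher at all 3 times; the Ccl6 probe set among them read -0.01 at 2 h and so is not a member; 0 passed without replicate 1, 2 or 3, and 1 to 4 with any 1 array left out. Ccl2, the main monocyte chemoattractant, read 8.43, 8.99 and 9.23 in saline and 9.10, 9.45 and 9.81 with INS37217 at 2 h, 7.18, 7.31 and 7.49 against 7.78, 8.36 and 8.25 at 24 h, and 5.96, 6.10 and 6.22 against 6.07, 6.38 and 6.29 at 7 d. Its level was highest at 2 h in both arms, and its difference was 0.57, 0.80 and 0.15. Another probe set of Ccl6, a macrophage chemokine, was a member, at 0.11, 0.61 and 0.80 with 9 of 9 pairs higher (limma's adjusted p = 0.023). Il1rn, the antagonist of the interleukin-1 receptor, was a member on a probe set outside the list's choice, at 0.30 (limma's adjusted p = 0.049); its list probe set also read 0.30, with limma's adjusted p = 0.11. Complement factor B (Cfb), the protease of the alternative pathway, differed by 0.27, 1.33 and 0.31, and C1ra, of the classical pathway, by 0.34 in the shared test; these were the 2 calls among 14 complement genes, whose median was 0.08, and between 0 and 2 of them passed with any 1 array left out.

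S100 proteins, annexins and galectins formed another group, with 5 of 20 measured genes called higher and 0 lower. At all 3 times 12 of the 20 were higher, and the median of the list was 0.28. S100a6, which binds annexins, differed by 0.44, 0.15 and 0.58 and in all 9 pairs. The called annexins were Anxa1, an anti-inflammatory mediator, at 0.27, Anxa2, which binds plasminogen activator with S100a10, at 0.33, and Anxa3 at 0.47. Galectin-1 (Lgals1) differed by 0.29. Leaving out any 1 array brought the count to between 1 and 3, except saline at 2 h replicate 1, with 5, and INS37217 at 2 h replicate 2, with 4. Without saline at 7 d replicate 2, the array with conflicting labels, 1 of the 20 passed, while 9 of 18 reactive glia genes did. With the arrays shifted to equal medians 2 of the 20 passed.

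Of the 21 genes of the 22 lower members, 2 were in any list examined, against 32 of the 67 higher genes. The lists hold 769 measured entries for 12393 genes, and a gene can be in more than 1 list. They were drawn up with earlier results of these arrays known, so these counts are a description. Dio2, the deiodinase that makes active thyroid hormone, fell furthest, by 0.50 ± 0.092 (SE) on the log2 scale (limma's adjusted p = 0.012). It read 8.52, 8.62 and 8.82 in saline and 7.67, 7.75 and 7.67 with INS37217 at 2 h, 7.09, 7.14 and 7.20 against 6.62, 6.62 and 7.02 at 24 h, and 7.44, 7.73 and 7.68 against 7.29, 7.59 and 7.49 at 7 d. The gap was widest at 2 h, -0.96, and shrank to -0.39 and -0.16; limma's adjusted p for that change with time was 0.0094. The other 2 probe sets of Dio2 did not follow it, at 0.15 and -0.06 in the shared test and 0.33 and -0.24 at 2 h, so the decrease belongs to 1 of the 3 probe sets.

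Spc25, a subunit of the NDC80 kinetochore complex, fell by 0.39 ± 0.066 (SE) on the log2 scale (limma's adjusted p = 0.0095). On the member probe set its level was high and changed strongly with time. It read 10.76, 10.94 and 10.88 in saline and 10.29, 10.83 and 10.60 with INS37217 at 2 h, 7.54, 7.84 and 7.61 against 6.92, 7.11 and 7.10 at 24 h, and 9.86, 10.43 and 10.15 against 9.53, 10.15 and 10.01 at 7 d. All 9 pairs were lower, and the ranges were apart at 24 h alone. Its other probe set, with a mean level of just 5.75, differed by -0.20 (limma's adjusted p = 0.2). It was the 1 call among 27 cell cycle genes.

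Rpgrip1, which anchors RPGR at the photoreceptor connecting cilium, was lower in all 9 pairs, at -0.34, -0.46 and -0.18 at the 3 times. It read 9.54, 10.30 and 10.36 in saline and 9.04, 9.99 and 10.14 with INS37217 at 2 h, 8.52, 9.34 and 9.36 against 7.99, 8.87 and 8.98 at 24 h, and 8.43, 9.69 and 9.77 against 8.38, 9.52 and 9.45 at 7 d. Replicate 1 was again lowest, and the other 3 probe sets of the gene read -0.29, -0.20 and 0.04. Rnf214, a RING finger protein, was the 1 lower member whose ranges were apart at all 3 times, at -0.26, -0.30 and -0.29; its other 3 probe sets read -0.16, -0.15 and -0.08. Among the other lower members were Kmt2a, a histone H3 lysine 4 methyltransferase, at -0.29, Gtf3c2, of the RNA polymerase III factor TFIIIC, at -0.37, Ints6, of the Integrator complex, at -0.33, and Tada2a, of acetyltransferase complexes, at -0.24.

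The 2 directions had different time profiles. In the 86 higher members the median difference was 0.32 at 2 h, 0.41 at 24 h and 0.41 at 7 d, and 2 h was the time of the smallest difference in 42 of them. In the 22 lower members the medians were -0.32, -0.40 and -0.19, and 7 d held the smallest difference in 17 and the largest in 0. These members were chosen on the mean of the 3 times, so the profiles are a description. The drug effect varied with time (limma's adjusted p under 0.05) in 12 of the 86 and 1 of the 22, where 1.26% of all probe sets passed that test.

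**Figure D3:**
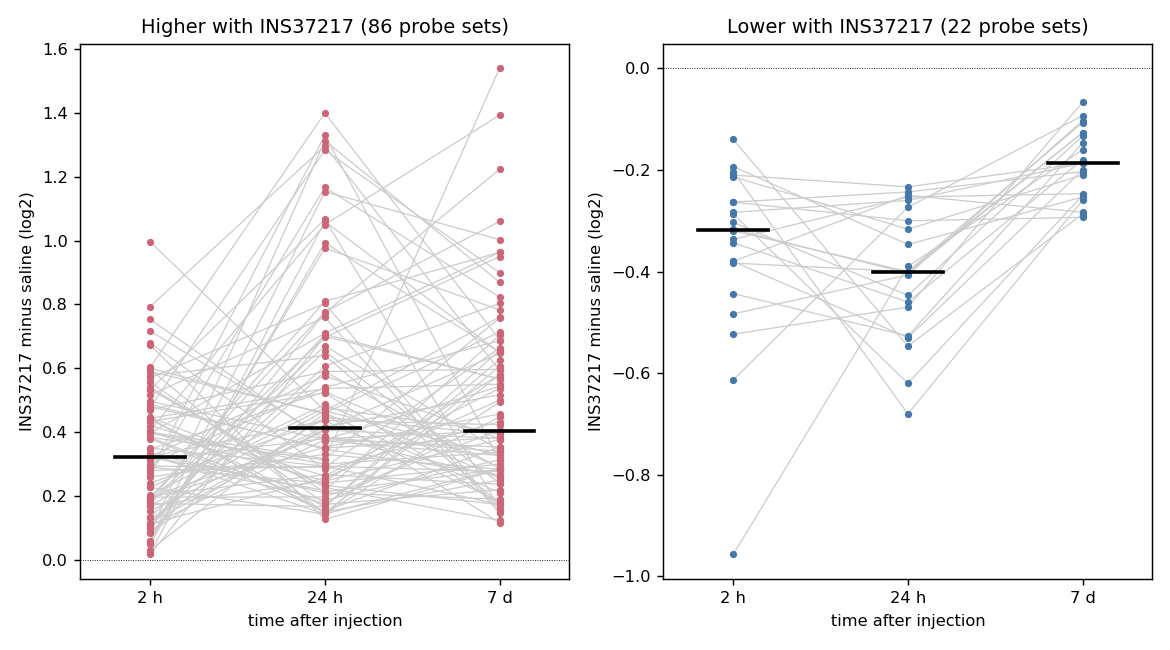
INS37217 minus saline difference in log2 level (y axis) at 2 h, 24 h and 7 d (x axis) for the 108 members, higher members in the left panel and lower ones in the right, with 1 grey line per probe set and a black bar at each median. The higher members stay near 0.32 to 0.41 in the median, and the lower members come closest to 0 at 7 d, at -0.19.

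The sign rule left out 5 of the 113 passing probe sets. Just inside it were H2-K1, with 0.02 at 2 h, Ms4a6d with 0.02 and 1 probe set of H2-D1 with 0.03. Just outside were 1 of the 2 called probe sets of Ccl6, with -0.01 at 2 h against 0.82 and 1.95 later, the MHC class II chaperone Cd74 with -0.03, Ms4a6b with -0.04, a probe set with no single gene, and Alas2, the erythroid enzyme of heme synthesis, at -1.37, -0.81 and 0.05. On both sides the differences nearest 0 were smaller than that error.

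The members were also described by replicate number and by pair. Every member had the same sign in each of the 3 replicate numbers, with medians of 0.37, 0.42 and 0.43 for the higher members and -0.32, -0.32 and -0.29 for the lower. Of the 774 pairs of the higher members 746 were higher, and of the 198 pairs of the lower members 192 were lower. In all 9 pairs, 59 of the 86 were higher, where 0.716% of all probe sets were, and 16 of the 22 were lower, against 1.14% of all. The ranges of the 2 arms were apart at all 3 times for 17 of the 86, against 0.0751% of all probe sets, and for 1 of the 22, against 0.0133%. Besides Lcn2, Tm4sf1, Timp1, Tgfbi, Chil1, Ch25h, Sprr1a, H2-D1 and Vim these included Ezr, the membrane-cytoskeleton linker ezrin, Tnfrsf12a, the receptor of TWEAK, Smim3 and Pigq. All of these measures come from the arrays that chose the members. Probe sets of the same genes that were not members are separate probes on the same RNA. For the higher genes 54 of 62 were higher, 25 of them at all 3 times, where 13.6% of all probe sets were. For the lower genes 21 of 25 were lower, 12 of them at all 3 times, against 16.8% of all. On 1 probe set per gene, 5688 of all 12393 genes were higher and 6651 lower. The 62 and 25 come from 28 and 14 genes, so they are not independent of each other. Among the 62 is the Ccl6 probe set that passed the shared test with a change of sign. For Pigq, 3 of 6 probe sets that were not members were lower, so its member stands apart from them.

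The receptor for the drug showed no shared difference that passed. P2ry2 read 5.24 to 5.36 in saline and 5.30 to 5.47 with INS37217 at 2 h, and its shared difference was 0.05 ± 0.056 (SE), with limma's adjusted p = 0.76. Of 19 P2 receptors and ectonucleotidases 0 passed; P2rx6, an ATP-gated channel subunit, read 0.25, 0.25 and 0.24 at the 3 times (limma's adjusted p = 0.055) and P2ry6, the UDP receptor, 0.17, 0.27 and 0.38 (limma's adjusted p = 0.072). Of 28 genes of P2Y2 and Gq signalling 0 passed, and of 28 water and ion transport genes 0 passed. Calls were rare over all genes, 54 higher and 11 lower of 12393, so 0 calls in lists of these sizes says little about them. The water channels Aqp1 and Aqp4 both differed by 0.00 (limma's adjusted p = 0.99 for each), and the survival factor Fgf2 by -0.04 (limma's adjusted p = 0.95).

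Neuronal lists had medians on the other side of 0 in the shared test. Over all genes the median was -0.01, and 6651 of 12393 were below 0. They had no calls, which is usual for short lists where 54 of all 12393 genes were called higher and 11 lower. All 9 measured cone photoreceptor genes had a shared difference below 0, with a median of -0.13, although the medians at single times were 0.01, -0.26 and -0.11; Pde6h, the inhibitory subunit of the cone phosphodiesterase, differed by -0.18 and was lower in all 9 pairs (limma's adjusted p = 0.11). All 9 measured bipolar cell genes were also below 0, with a median of -0.08; Otx2, a transcription factor of photoreceptors and bipolar cells, differed by -0.21 (limma's adjusted p = 0.11). For 19 rod genes the median was -0.03, close to that of all genes, and 15 were below 0. Their medians at 2 h, 24 h and 7 d were 0.01, -0.03 and -0.04. At 24 h the mean level of the cone list was 8.68 to 8.92 in saline and 8.36 to 8.61 with INS37217, and that of the rod list 11.14 to 11.21 and 11.05 to 11.12. With the arrays scaled by quantiles again, 8 of the 9 bipolar genes were below 0, and the 9 cone genes stayed there.

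**Figure D4:**
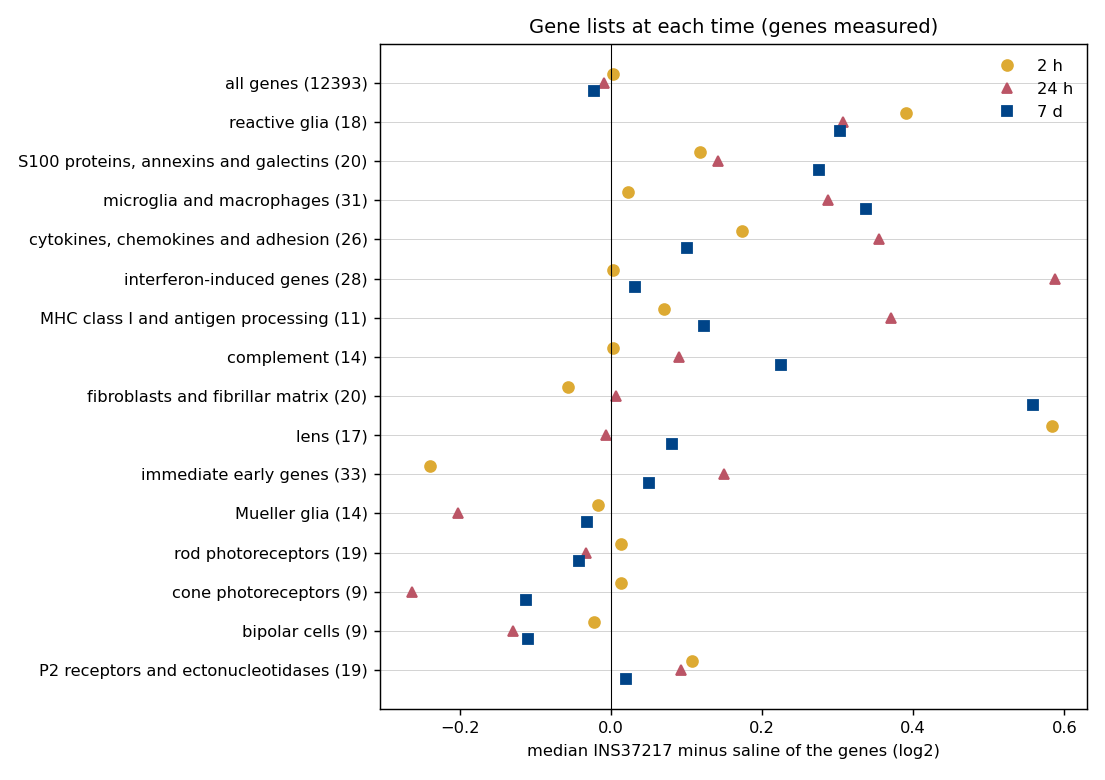
Median INS37217 minus saline difference (x axis, log2) of 15 gene lists and of all genes (y axis, genes measured in brackets), 1 point for each time and 1 probe set per gene. The reactive glia list lies at 0.30 or above at all 3 times, whereas the interferon list is high at 24 h alone and the lens list at 2 h.

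Mean levels of some marker lists of other cell types were apart between arms at single times. Fibroblast and fibrillar matrix genes, 20 measured and 0 called in the shared test, had a mean level of 6.78 to 6.84 in saline and 7.39 to 7.48 with INS37217 at 7 d, with overlapping ranges at 24 h. Lens genes, 17 measured and 0 called, averaged 10.3 to 10.5 in saline and 10.94 to 11.02 with INS37217 at 2 h, and overlapped at 24 h. Erythrocyte genes, 5 measured with Alas2 called lower, averaged 6.01 to 6.31 in saline and 5.74 to 5.95 with INS37217 at 2 h. Alas2 alone differed by -1.37 at 2 h, whereas the median of the 5 was -0.08. In the shared test 2 of the 5 were above 0, so that gap in the mean rests largely on 1 gene. Pigment epithelium and melanocyte genes, 15 measured and 0 called, averaged 7.52 to 7.64 in saline and 7.32 to 7.46 with INS37217 at 2 h, and overlapped at 24 h and 7 d. Their median difference at 2 h was just -0.06, and 8 of the 15 were above 0 in the shared test. Neutrophil genes, 12 measured and 0 called, averaged 5.96 to 6.25 in saline and 6.46 to 6.70 with INS37217 at 24 h, and overlapped at 2 h and 7 d. No marker is at 0, since the lowest value on any array is 2.83. The part of these cells in the differences above was not tested.

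RNA integrity was compared through the 3′ and 5′ control probe sets of beta-actin, whose log2 difference grows as RNA degrades. It averaged 0.766 in saline and 0.658 with INS37217, a difference of -0.108 that was negative in 5 of 9 pairs (exact two-sided sign-flip permutation test over pairs, p = 0.125, also after adjustment over the 2 control genes). At 2 h it was -0.29 and at the later times 0.013 and -0.047. For Gapdh the difference was -0.083, negative in 7 of 9 pairs (exact sign-flip permutation test, p = 0.0586, adjusted 0.117); the smallest p that 9 pairs allow is 0.00391. Its part in the shared differences was not tested.

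The calls depend on the replicate numbers: without the replicate block 9 probe sets passed, all 9 of them higher and all also called with it. Without the 24 h arrays 6 passed, and with replicate 2 or replicate 3 left out 7 and 3. With a separate drug effect for each time in place of a common one, 349 passed, among them all 108 members. In each of these fits all 108 members kept their direction. That outcome was fixed beforehand, since each member had 1 sign at every time and in every replicate number, and the design is balanced.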

How the data were processed

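Total RNA of pooled retinas was hybridised, biotin-labelled, to an Affymetrix mouse array. The authors deposited log2 expression values made with RMA, per the submitters' processing notes (version not given in the sources used here). Values ran from 2.83 to 14.15. RMA matches the arrays' distributions and compresses small changes of dim probe sets; the number of arrays limits the precision.

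Of 22690 probe sets, 64 controls were left out. GEO's platform annotation gave 1 gene to 20380 of the 22626 tested, several to 691 and none to 1555; symbols were updated through RefSeq identifiers where possible. Lists use, for each gene, the probe set with the highest mean; 769 of 892 list entries were measured.

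limma 3.58.1 in R 4.3.3 was fitted to all probe sets with terms for time, replicate number and INS37217, moderated by empirical Bayes, with Benjamini-Hochberg adjustment. Differences at single times and the test of a drug effect varying with time came from 6 group means plus the replicate number. The method was tested on simulated data. Arrays are called biological replicates in the series' design text. Replicate numbers paired the arrays: deviations from the group means correlated at 0.426 to 0.921 in all 45 same-number pairs and at -0.847 to 0.725 in 90 others.

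The members and lists were chosen with earlier results of these data known. Named genes were, per direction, the 15 members of largest shared difference, the 10 with the largest smallest difference over times, up to 4 members per list, a few set genes such as P2ry2 and Gfap, and up to 5 passing probe sets that change sign; Tnfaip2, Vim, Cd44, Cd53, Ezr, Tnfrsf12a, Smim3, Pigq, P2rx6, P2ry6, Pde6h, Otx2, Car14 and Rlbp1, where outside this rule, were named after their values were seen. Alternatives were the replicate block, array scaling, filters, averaging of probe sets, and omissions of arrays, replicates and times.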

Additional observations from a re-analysis of the deposited data

Results flagged for a closer look

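The effect of INS37217 differed between times, by limma's F test of a drug effect varying with time (adjusted p over all probe sets), for several genes named here. Among members with 1 sign, these were Serpina3n (adjusted p = 0.00011), Srgn (0.0012), Chil1 (0.0076), Dio2 (0.0094), Cfb (0.011), Ifi202b (0.016), Lcn2 (0.035), Steap4 (0.035) and Ms4a6d (0.042). Serpina3n was widest at 7 d, Dio2 at 2 h, and Cfb, Ifi202b, Lcn2 and Steap4 at 24 h. Among passing probe sets with a change of sign they were Alas2 (0.00014), Ccl6 (0.00092), Cd74 (0.0063) and Ms4a6b (0.013).

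Another 3 genes did not pass the shared test and had differences centred on 1 or 2 times. Slfn4, a Schlafen family gene of myeloid cells, read -0.02, 2.74 and 0.15 at 2 h, 24 h and 7 d (by-time adjusted p in limma = 1.6e-07). Arg1, arginase of wound-healing macrophages, read 0.03, 1.13 and 3.23 (0.00046) with a shared difference of 1.46. Crygd, a lens gamma-crystallin, read 1.15, -0.16 and 0.09 (0.00014).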

How the results depend on the processing

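The counts given here are, in order, probe sets passing, higher and lower, then those with 1 sign at the times fitted, against 113, 89, 24, 86 and 22 in the report. Without the replicate block they were 9, 9, 0, 9 and 0, with 1003 at an unadjusted p under 0.05 in limma, and 30 probe sets passed the by-time test against 286 with it. With a replicate block within each time, 175 passed, 55 of them lower and 51 lower with 1 sign. With 6 group means and the replicate block, 349, 260, 89, 168 and 66 passed. With only replicates 2 and 3, 35, 33, 2, 33 and 2 passed. Leaving out 2 h gave 137 higher and 9 lower, all with 1 sign, leaving out 24 h 6 higher and 0 lower, and leaving out 7 d 40 higher and 67 lower. Omissions of 1 array or 1 replicate number spanned 3 to 131 passing, 3 to 109 higher, 0 to 40 lower, 3 to 93 and 0 to 37 with 1 sign, and 28 to 355 by time. Single arrays that moved the total by over 1.5 times were saline at 2 h replicates 2 and 3 (67 and 74), saline at 24 h replicates 1 to 3 (63, 61 and 60), saline at 7 d replicate 2 (59) and INS37217 at 24 h replicates 1 to 3 (67, 47 and 57). With the probe sets of a gene averaged, 145 genes passed by time and Scamp5 reversed, at 0.005 (limma's adjusted p = 0.98). With equal array medians 83 of the 108 members passed, with quantile scaling 101, and with a trended, robust prior 98. All 108 members kept their direction under each setting that keeps probe sets apart and tests them, and no other named gene reversed under averaging. For changes of the block and omissions of a time or a replicate number, the kept direction was fixed by the choice of members and the balanced design. The cause of these changes was not tested. Small differences of dim probe sets are the least certain, since RMA compresses them.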
